A study of Mus musculus with 3 samples.

Results

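The glutathione S-transferases examined here were 10 genes chosen by name (Gsta2, Gsta3, Gsta4, Gstm1, Gstm2, Gstm3, Gstm4, Gstp1, Gstt1 and Gstz1), found by symbol among 22367 protein-coding genes of the mouse NCBI37/mm9 annotation (GENCODE M1). Binding was measured by chromatin immunoprecipitation and sequencing (ChIP-seq) in livers of male wild type C57BL/6 mice at 3 months of age. There were 3 libraries, namely 1 precipitated with an antibody against RXRα, 1 with an antibody against RARα and 1 of input chromatin without precipitation. No library had a replicate, the labels do not say whether mice were pooled, and the values describe these libraries only. The RXRα and input coverage corresponded to 9999939 and 9999292 reads, and the RARα peak list gives no depth for its library. RARα regions were the 143280 deposited peaks, of which those with a score over 20 are called filtered peaks. RXRα regions were stretches of 32 bp bins in which RXRα coverage was at least 20 times input, where input was never taken below its genome mean of 0.603 reads per bin. The highest bin of a region or gene is the bin with the highest such ratio, which need not be the bin with the most RXRα reads. A RARα peak was called co-localized when it shared at least 25% of the narrower interval with an RXRα region, and a region is said to be met by a peak under the same rule. As a description of the tissue, 5 of 5 hepatocyte genes, among them Alb and Apoa1, had a filtered co-localized peak. The count was 0 of 5 for genes of other tissues, and the share of all genes was 27.2%. Of the genes of other tissues, Gfap had a filtered peak of score 27 and an RXRα region that were not co-localized. These genes were chosen with earlier results of these data known, so the counts are no independent check of the tissue.

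Glutathione S-transferases join glutathione, the main thiol of the liver cell, to electrophilic compounds, so that drugs, toxins and products of lipid peroxidation can be exported and excreted. The cytosolic enzymes fall into classes named alpha, mu, pi, theta and zeta, and several are among the abundant proteins of the hepatocyte. RXRα is the obligate partner of many nuclear receptors that sense drugs, bile acids and lipids, while RARα is a receptor for retinoic acid. Many nuclear receptor dimers bind direct repeats of the half-site AGGTCA and its variants. The factor Nrf2 (Nfe2l2), which induces many of these enzymes under oxidative stress, acts through another sequence, the antioxidant response element.

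All 10 glutathione S-transferase genes had an RXRα region within 10 kb of the start or over the body, against 47.9% of all genes. A filtered RARα peak was found in the same window of 9 of the 10, all but Gstm2, against 57.9% of all genes. A filtered peak that was co-localized was found at 6 genes (Gsta3, Gsta4, Gstm4, Gstp1, Gstt1 and Gstz1), against 27.2% of all genes. The 4 without were Gsta2 and the mu class genes Gstm1, Gstm2 and Gstm3, although Gstm1 and Gstm3 each had 2 co-localized peaks of lower score. The bodies of these genes, with a median of 15889 bp, were about as long as those of all genes, with a median of 15427 bp.

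Signal strength was also above the typical gene. The median of the highest RXRα ratio over input was 80.4 for the 10 genes and 19.9 for all genes. The median of the highest RARα score was 61.5 against 28. The number of RXRα regions per gene had a median of 3.5 against 0, while the number of filtered RARα peaks had a median of 1.5 against 1. Other sets stood above all genes as well. The median highest RXRα ratio and RARα score were 97.9 and 148 for the 5 hepatocyte genes. They were 61.4 and 71 for 15 glutathione and Nrf2 pathway genes, and 33.2 and 48.5 for 16 further glutathione S-transferase genes. The bodies of the 10 genes also held more input reads than most, with a median of 7.04 per kb against 3.85 for all genes. The part of this in the other values was not tested.

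**Figure D1:**
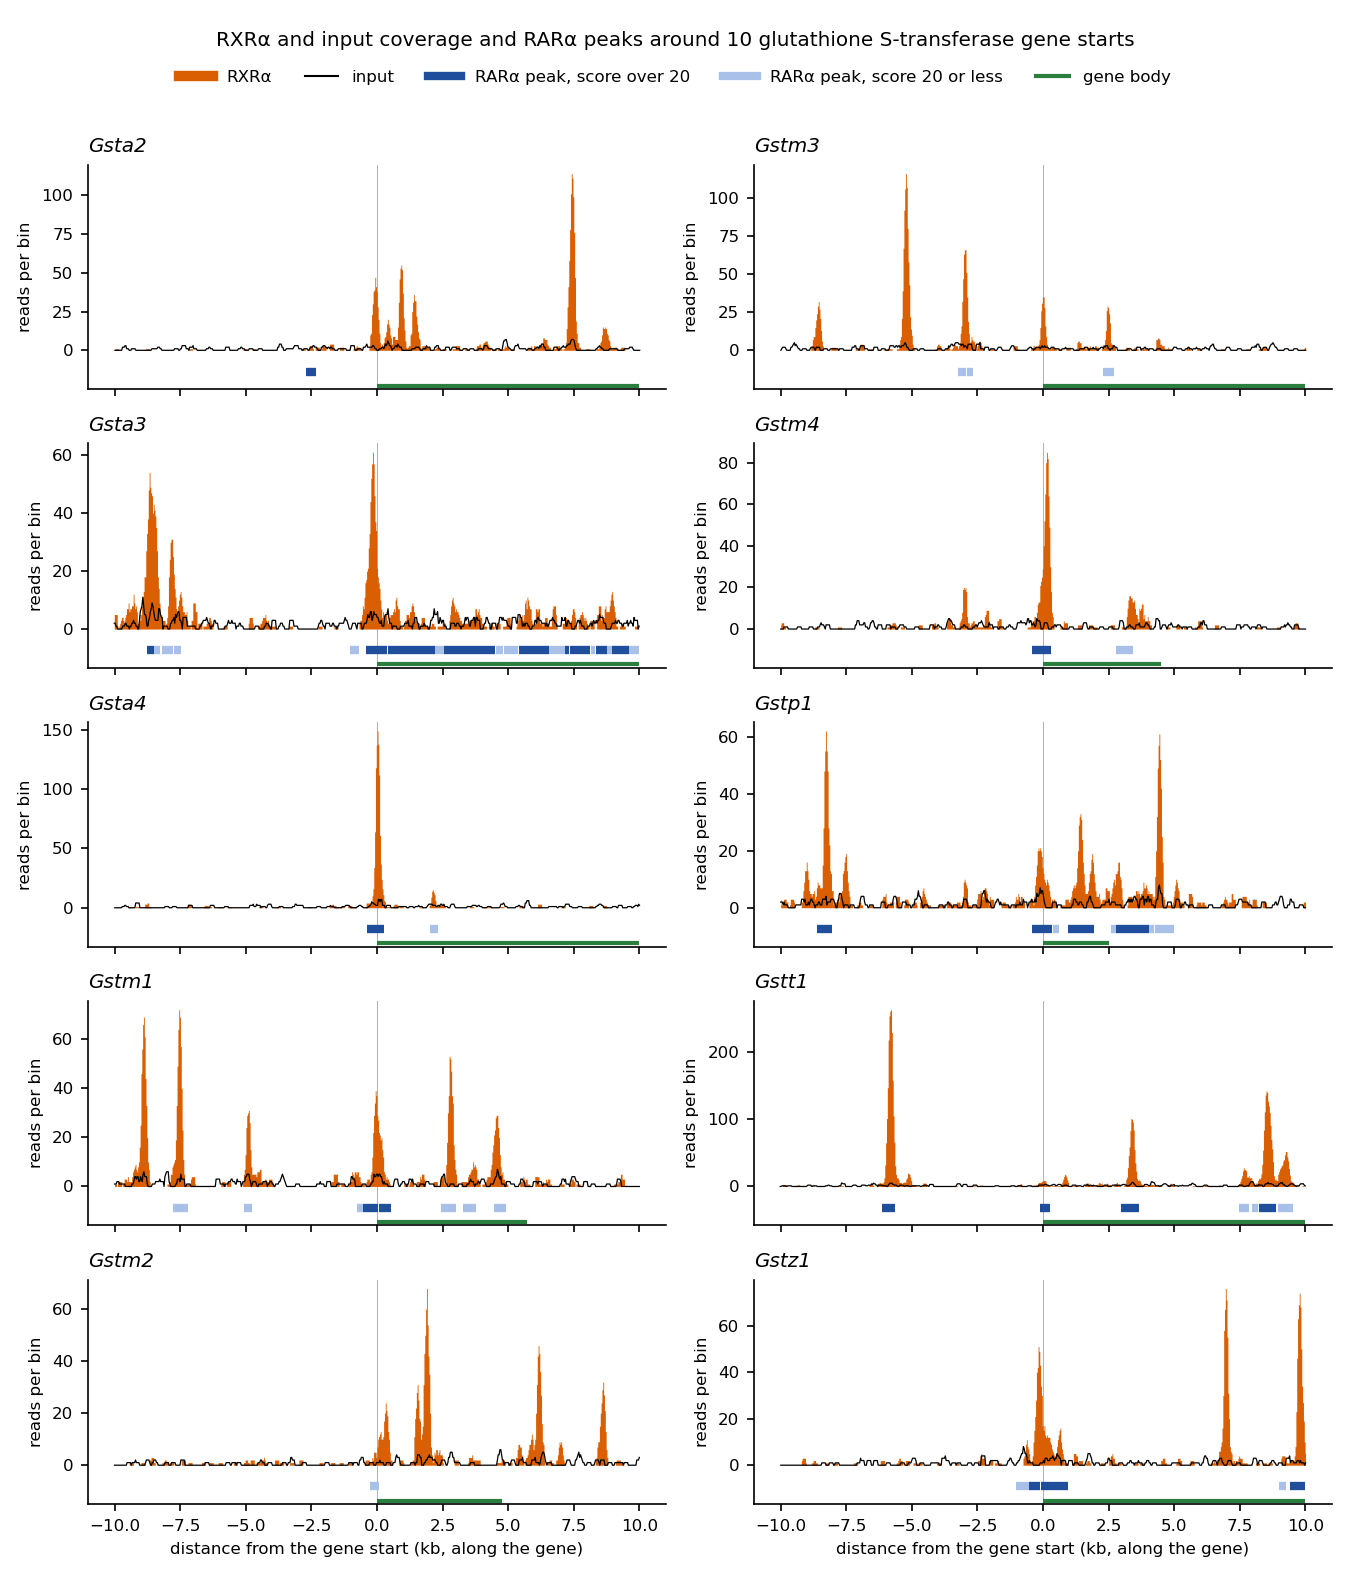
Coverage of RXRα (orange) and input (black) in reads per 32 bp bin, and RARα peaks (dark blue for a score over 20, light blue otherwise), by distance in kb from each of the 10 gene starts, drawn along the gene, with a separate vertical scale in each panel. RXRα signal stood in narrow columns over low input at every gene, whereas RARα peaks lined the Gsta3 body as far as drawn and were absent from the Gsta2 body.

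The RXRα and RARα signals were not ranked alike among the genes. Gstt1 had the highest RXRα ratio, 243.9, which only 64 of 22367 genes reached or passed, and a moderate RARα score of 40. Gstp1 had the highest RARα score, 146, which 354 genes reached or passed, and an RXRα ratio of 55.0. Gsta3 had the lowest RXRα ratio of the 10, 39.8, with a RARα score of 86. Gstm2 had an RXRα ratio of 71.4 and a highest RARα score of 12, the only one of the 10 below the threshold, while Gsta4 was just above it with 22.

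**Figure D2:**
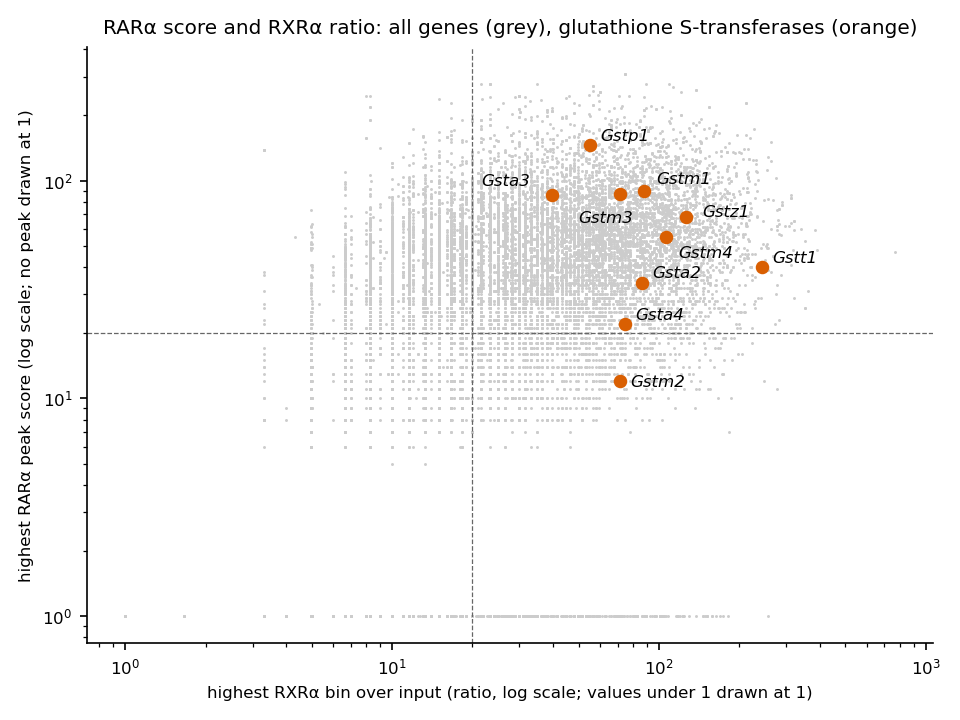
Highest RARα peak score against the highest RXRα ratio over input for all 22367 protein-coding genes (grey) and the 10 glutathione S-transferase genes (orange), both on log scales, with dashed lines at the thresholds of 20. The 10 genes lie to the right of the RXRα threshold and 9 of them lie above the RARα threshold, with Gstm2 at a score of 12.

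In all, 36 separate RXRα regions were counted for the 10 genes, with a median highest ratio of 45.4 against 34.8 for the 42117 regions of the genome. Of these, 6 lay within 1 kb of a gene start, 10 further upstream and 20 further downstream. The stretches searched differ in length and that around the starts is the shortest, so these counts are not densities. By the position of the highest bin, 18 regions were in introns, 13 outside genes, 3 in untranslated exons and 2 in coding exons. A filtered RARα peak was co-localized with 10 of the 36 regions (27.8%), close to the 28.9% of all regions in gene windows. Another 8 regions were met by RARα peaks of lower score alone, and 18 by no RARα peak of any score, of which a Gstm4 region at position 3476 touched a peak of score 14 over less than 25%. Over all gene windows 57.4% of regions met a RARα peak, and here 18 of 36 did.

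Of 127 RARα peaks in these windows, 51 were filtered peaks, and 30 of the 51 belonged to Gsta3. In all, 10 filtered peaks (19.6%) were co-localized, against 32.6% of filtered peaks in all gene windows. Outside Gsta3 the count was 9 of 21. The median score was 32.5 for co-localized peaks and 31 for the others. RXRα over input across the peak, which is part of the definition of co-localization, had medians of 15.4 and 2.15. Of the 41 peaks that were not co-localized, 29 lay over the Gsta3 body, so their medians mostly describe that gene. Outside Gsta3 the highest scores, 146, 90 and 87, belonged to peaks that were not co-localized.

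Among the alpha class genes, which encode enzymes that also reduce lipid hydroperoxides, the patterns were unlike each other. Gsta4 (ENSMUSG00000032348.5, chromosome 9, 78039773 to 78057155, plus strand) encodes the enzyme with high activity towards 4-hydroxynonenal, a product of lipid peroxidation. It had a single RXRα region of 128 bp directly at the start, with 149 RXRα and 2 input reads in its highest bin, 19 bp after the start. A RARα peak of score 22 with its summit at position 62 overlapped this region, and 191 RXRα reads against 14 input reads lay under that peak. Gsta4 had the highest start signal of the 10, with RXRα at 10.3 times input within 1 kb of the start (95% counting interval 6.57 to 17.9), and only 381 genes reached or passed it. The part of the region before the start is shown because both receptors met there, although it held none of the direct repeats searched for, even with 1 mismatch.
Gsta4, chr9:78039681-78039772, plus strand: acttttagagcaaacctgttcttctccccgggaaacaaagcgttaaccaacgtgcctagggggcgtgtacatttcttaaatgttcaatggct

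Gsta2 (ENSMUSG00000057933.4, chromosome 9, 78178825 to 78203595, minus strand) lay on the same chromosome and had no co-localized peak of any score. It had 6 RXRα regions, all at the start or within the body, and no RARα peak of any score over the body. Its only RARα peak, of score 34, lay at position -2455, where RXRα was no higher than input with 3 against 4 reads. The highest RXRα bin, at position 955 in an intron, had 52 RXRα reads and no input read, and the region at the start (position -5) had 38 RXRα reads and no input read. The sequence around the highest bin is shown for a direct repeat with a 1 base spacing (DR1), in capitals, that differs from the half-sites searched for at 1 base and lies 4 bp from the bin's centre.
Gsta2, chr9:78202590-78202690, plus strand: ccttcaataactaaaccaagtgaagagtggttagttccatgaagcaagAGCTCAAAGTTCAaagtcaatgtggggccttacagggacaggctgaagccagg
Of all 32-base words starting in the Gsta2 body, 59.4% occurred once in the genome, against 96.3% for Gsta3. The 4 regions at positions 1403 to 13883 had from 28.1% to 52.3% of such single-copy words, while the region at position 955 had 97.3% and that at the start 100%. Reads within repeated words cannot be placed with certainty, so the signal in these 4 regions is uncertain. The absence of RARα peaks from the repeated parts of the body is uncertain as well.

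Gsta3 (ENSMUSG00000025934.9, chromosome 1, 21230670 to 21255442, plus strand) encodes the mouse enzyme known for its activity towards aflatoxin epoxide. Its body was almost filled with RARα peaks. Of its 68 peaks, 63 lay over the body, and together the peaks covered 96.6% of it, a share that 93 of 22367 genes reached or passed. A run of 35 abutting peaks stretched over 13600 bp from 21230231 to 21243830. The 29 filtered peaks over the body had scores of up to 86, the highest at position 45, next to the start.

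None of the 63 body peaks of Gsta3 was co-localized with an RXRα region. The median RXRα over input across these peaks was 1.07, ranging from 0 to 13.3, and the peak at the start had 6.43. Its 2 RXRα regions lay upstream, at positions -8734 and -7902, with highest ratios of 38.0 and 39.8. A filtered peak of score 24 met the first, and a peak of score 16 met the second. Both regions had only single-copy words.

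**Figure D3:**
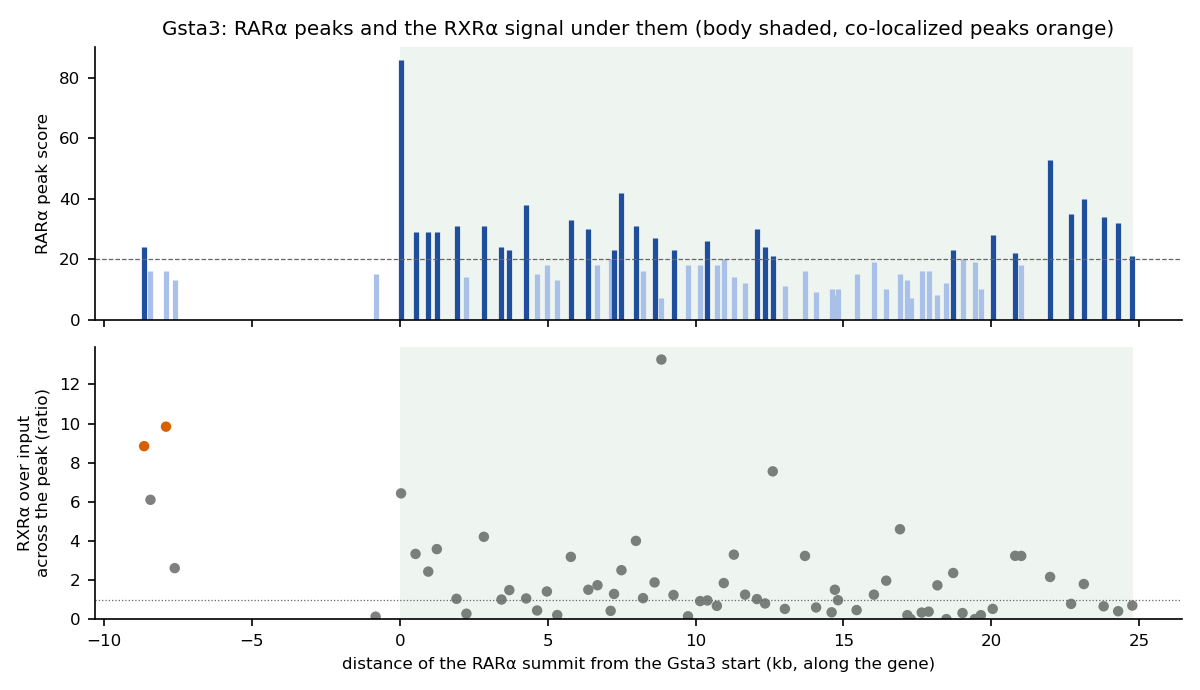
RARα peak scores (upper panel, dashed line at 20) and RXRα over input across each peak (lower panel, dotted line at 1) by distance in kb of the summit from the Gsta3 start, with the gene body shaded. Orange points mark the 2 co-localized peaks, both upstream, whereas 63 peaks over the body have a median ratio of 1.07.

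The Gsta3 body also held 12.6 input reads per kb, the highest of the 10 genes, and 163 of all genes reached or passed it. Over all genes the share of the body under RARα peaks and the input reads per kb had a Spearman rank correlation of 0.626, given as a description because neighbouring genes and base composition are shared. The same share and RXRα over input of the body had a correlation of 0.725. The part of input in the RARα peaks at Gsta3 was not tested. Over the 164 genes with at least 90% of the body under RARα peaks, the median input was 10.4 reads per kb and the median RXRα over input of the body 3.49. The RXRα value of the Gsta3 body, 1.63 (1.41 to 1.88), lay below the median of these genes.

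The mu class genes, whose products conjugate epoxides and other electrophiles, lie side by side on chromosome 3, and the 4 examined here spanned 102.6 kb (107745251 to 107847812), all on the minus strand. Each of the 4 had RXRα regions, but only Gstm4 had a co-localized filtered peak. The regions did not fill the span evenly, and none lay between 107753600 and 107769633 in the Gstm3 body. Gstm4 (ENSMUSG00000027890.10, 107843326 to 107847812) had a region of 416 bp across its start with 64 RXRα reads and no input read in the highest bin, at position 212. The RARα peak over it had a score of 55 and its summit at position -93, with 147 RXRα against 9 input reads. Its start signal was 6.19 times input (4.07 to 9.94). The part of the region before the start, shown as the counterpart of the Gsta4 sequence, held no direct repeat either.
Gstm4, chr3:107847813-107847904, plus strand: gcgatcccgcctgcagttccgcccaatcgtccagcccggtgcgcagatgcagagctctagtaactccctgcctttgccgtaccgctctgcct

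Gstm1 (ENSMUSG00000058135.6, 107815173 to 107820891) had stronger RARα peaks at its start than Gstm4, with scores of 90 and 72 at positions -94 and 146. RXRα was 6.92 and 5.04 times input across them, but no RXRα region overlapped either peak, and the nearest was 2633 and 2153 bp away. Its 3 regions lay elsewhere. The region at position 2763 in an intron, with 53 RXRα reads and no input read in its highest bin, was met by a RARα peak of score 16. That at position -7509, with 69 RXRα and 2 input reads, was met by a peak of score 18, and the third at -8949 by none. The sequence at position -7509 is shown for a direct repeat with a 4 base spacing (DR4) with 1 mismatch, in capitals. Single-copy words made up 60.0% and 68.8% of both upstream regions.
Gstm1, chr3:107828350-107828450, plus strand: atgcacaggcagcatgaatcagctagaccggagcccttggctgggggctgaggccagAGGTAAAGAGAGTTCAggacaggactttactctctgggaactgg

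Gstm2 (ENSMUSG00000040562.6, 107784620 to 107789371) had 4 RXRα regions, 2 in introns and 2 beyond the gene's end, and none met a RARα peak of any score. Its highest bin, at position 6187, had 43 RXRα reads and no input read. The only RARα peak, of score 12, lay at position -39, where RXRα had 11 reads and input 2. The regions at positions 1771, 6187 and 8683 had 61.0%, 82.5% and 65.2% of single-copy words, and that at position 331 had only such words.

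Gstm3 (ENSMUSG00000004038.7, 107745251 to 107772201) has a long gene model in this annotation that runs into the neighbouring gene Gstm6. Its highest RXRα bin, at position -5095, had the same 43 RXRα reads and no input read. Its 5 regions included 1 that was also counted for Gstm2, with 65.2% of single-copy words, and lower scoring RARα peaks (scores 16 and 10) met 2 of them. The filtered peak, of score 87, lay at position 15766 in an intron, where the nearest gene start was that of Gstm6, and the closest RXRα region was 2551 bp away. Without the gene body the highest RARα score of Gstm3 was 16.

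**Figure D4:**
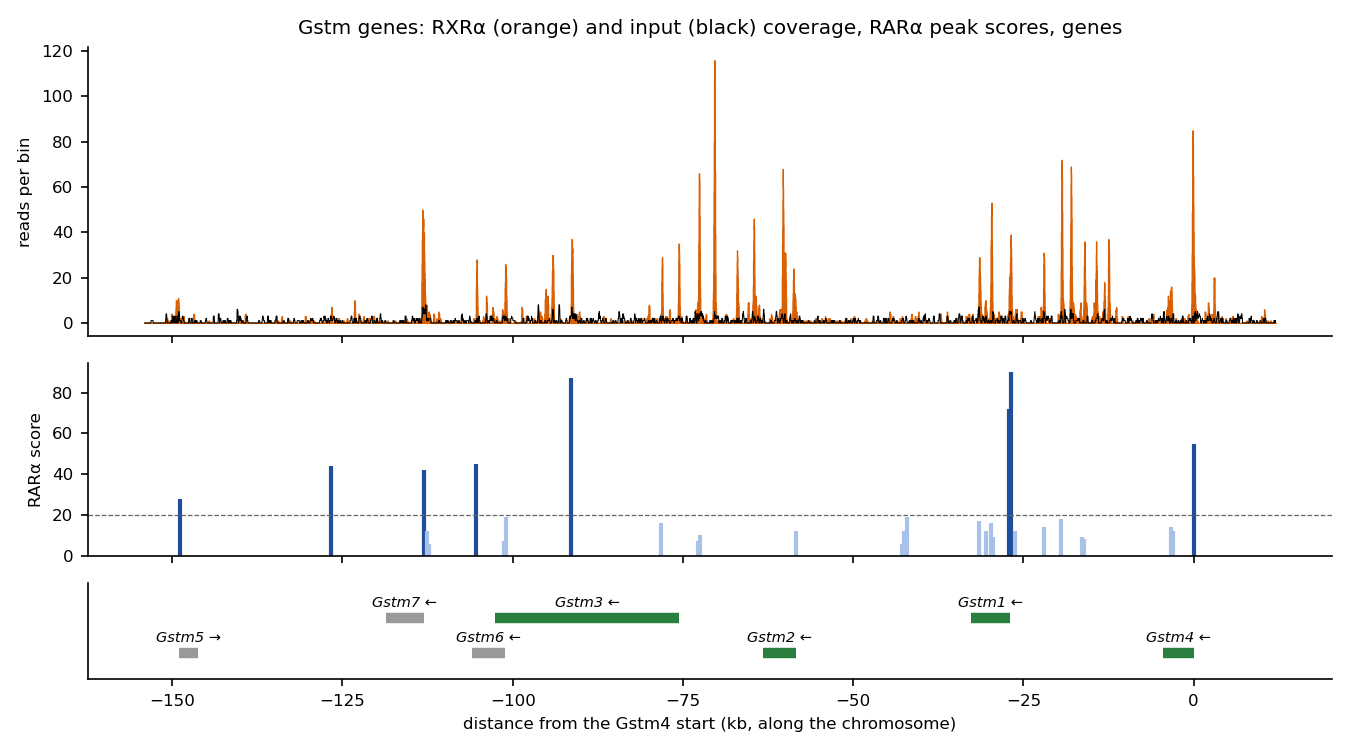
RXRα (orange) and input (black) coverage in reads per 32 bp bin, RARα peak scores (dashed line at 20) and gene bodies over the mu class genes, by distance in kb from the Gstm4 start along the chromosome, with examined genes in green and their neighbours in grey. RXRα regions were counted for each of the 4 examined genes. Their filtered RARα peaks are at the Gstm4 and Gstm1 starts and at 1 place in the Gstm3 model.

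Gstp1 (ENSMUSG00000060803.3, chromosome 19, 4035411 to 4037921, minus strand), the pi class gene, had the strongest RARα peak of the 10. This peak, of score 146 with its summit at position 6, was 800 bp wide, and it carried 52 RXRα against 13 input reads. It was not co-localized, since the nearest RXRα region was 985 bp away. That region, in an intron at position 1361, had 29 RXRα reads and 1 input read in its highest bin and was met by a filtered peak of score 39. A region at position -8239, with 55 RXRα reads and 1 input read, was met by a peak of score 31, whose nearest gene start was that of Gstp2. RARα peaks covered 65.0% of the body, and 375 genes reached or passed this share.

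The intronic Gstp1 sequence is shown because it held direct repeats with spacings of 3 bases (DR3) and 4 bases (DR4), with 1 mismatch each. They lie on the minus strand and overlap in 1 half-site, and the capitals mark both.
Gstp1, chr19:4036510-4036610, plus strand: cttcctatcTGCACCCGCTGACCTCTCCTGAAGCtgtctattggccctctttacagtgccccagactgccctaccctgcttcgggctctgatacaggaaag
Of the words in the Gstp1 body 59.5% were single copy, close to the share of Gsta2, and the adjacent Gstp2 is a closely related gene. The intronic region had only single-copy words, while 74.5% of the words within 1 kb of the start were single copy.

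Gstt1 (ENSMUSG00000001663.4, chromosome 10, 75246558 to 75261329, minus strand), the theta class gene whose enzyme acts on small halogenated compounds such as dichloromethane, had the most RXRα regions (7) and the most co-localized filtered peaks (3). Its strongest region, 512 bp wide and outside genes, had 147 RXRα reads and no input read in the highest bin, at position -5919 (95% counting interval of the RXRα reads 124 to 173). Across the RARα peak over it, of score 30 with its summit at -5776, there were 392 RXRα against 8 input reads, which is 50.3 times input and the highest of all 51 filtered peaks. The other co-localized peaks lay in introns, with scores of 40 at position 8494 and 21 at position 3374. RXRα was 25.1 and 15.2 times input across them.

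The Gstt1 start itself was the weakest for RXRα among the 10, with 47 RXRα against 16 input reads within 1 kb (2.95 times input, 1.64 to 5.55). A filtered peak of score 37 lay there at position 54, with 13 RXRα against 5 input reads, and was not co-localized. The sequence of the upstream region is shown from before the RARα summit into the highest RXRα bin. In capitals it has a DR4 and a DR3, each with 1 mismatch, whose middles lie 4 bp before and 21 bp after the RARα summit. All its words were single copy.
Gstt1, chr10:75267055-75267260, plus strand: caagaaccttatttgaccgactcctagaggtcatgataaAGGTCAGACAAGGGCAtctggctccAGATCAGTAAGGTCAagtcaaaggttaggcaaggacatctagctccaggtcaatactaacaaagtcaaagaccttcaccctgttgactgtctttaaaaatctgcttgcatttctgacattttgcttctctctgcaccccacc

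Gstz1 (ENSMUSG00000021033.9, chromosome 12, 88488668 to 88505673, plus strand) encodes the zeta class enzyme, which is the maleylacetoacetate isomerase of tyrosine degradation. It had 4 RXRα regions and 5 filtered peaks, of which 2 were co-localized. The first, of score 34 at position -338, had 63 RXRα reads against 1 input read (37.1 times input), and its summit lay in a coding exon of the overlapping, divergently transcribed gene Pomt2, which encodes a protein O-mannosyltransferase. This site therefore cannot be assigned to 1 of the 2 genes. The second had a score of 68 at position 9897, in an intron, with 104 RXRα against 6 input reads. Its nearest gene start was that of Pomt2, as it was for the region at position 6964. The highest RXRα bin, at position 6964, had 76 RXRα reads and no input read and met no RARα peak, and 54.2% of its region's words were single copy.

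RXRα over input within 1 kb of the start ran from 2.95 at Gstt1 to 10.3 at Gsta4, with a median of 4.65 against 1.36 for all genes. Behind Gsta4 followed Gsta2 with 6.91 (4.49 to 11.1), Gstm4, Gsta3 with 5.20 (3.48 to 7.91), Gstz1 with 4.96 (3.26 to 7.69) and Gstm1 with 4.35 (2.64 to 7.26). Gstm2 with 4.25 (2.24 to 8.30), Gstm3 with 3.74 (2.03 to 7.26) and Gstp1 with 3.17 (1.93 to 5.48) came before Gstt1. The counting intervals of all neighbours in this order overlapped, and only that of Gsta4 lay wholly above those of Gstp1 and Gstt1. The intervals cover counting error and not variation between mice.

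Over the gene body the order was another. Gstp1 was highest with 6.75 (4.04 to 11.6), from 120 RXRα and 18 input reads. Gstm4 with 6.00, Gstm2 with 5.65 and Gstt1 with 5.25 followed, and Gsta4 with 1.85 and Gsta3 with 1.63 were lowest. Thus Gsta4, which had the highest start signal, was among the lowest over the body, with intervals that did not overlap. Gstt1, Gstp1 and Gstm2 were higher over the body than at the start, with overlapping intervals. The median body value was 4.27 against 0.842 for all genes.

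**Figure D5:**
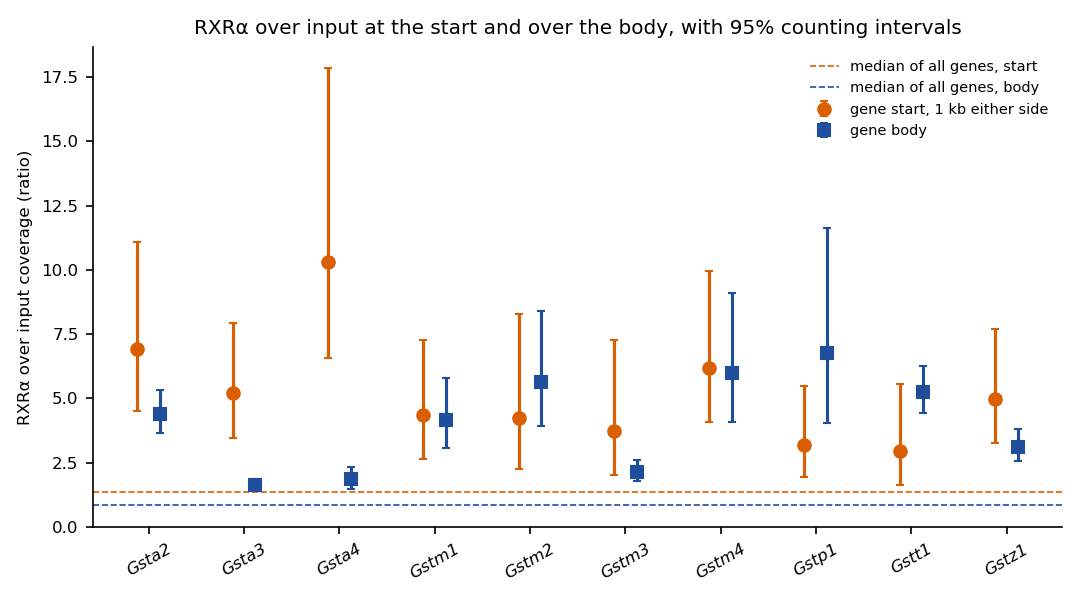
RXRα over input coverage within 1 kb of the gene start (orange circles) and over the gene body (blue squares) for the 10 genes, with bars for the 95% counting intervals and dashed lines at the medians of all genes, 1.36 and 0.842. All intervals lie above the line of their own kind, and Gsta4 has the largest gap between start and body.

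The windows of 201 bp around the summits of the filtered peaks and the highest bins of the RXRα regions were searched on both strands for direct repeats of the half-site AGGTCA and of its variants, which were GGGTCA and also AGTTCA as well as GGTTCA, with a spacing of 1 to 5 bases. An exact repeat was found in 0 of 51 RARα windows and 0 of 36 RXRα windows, against 0.677% of all 32946 RARα windows and 2.98% of all 42117 RXRα windows. With 1 mismatch over both half-sites, 3 RARα windows (Gstp1, Gstt1 and Gstz1) and 6 RXRα windows held one, against 8.50% and 23.4% of all windows. Single half-sites, counted after the Gstt1 sequence had been seen, occurred in 39.2% of the RARα windows and 63.9% of the RXRα windows, against 36.1% and 64.8% of all. The Gstt1 summit window had 4 of them, and 0.334% of all RARα windows had as many. Pairs of half-sites in other arrangements were not searched for.

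The core of the antioxidant response element, TGACNNNGC, was searched in the same way. It occurred in 5 of the 51 RARα windows, against 9.93% of all, and in 3 of the 36 RXRα windows, against 10.9% of all. Of the 5, 4 were in the Gsta3 body and 1 was at the upstream Gstp1 peak (position -8294). The 3 RXRα windows belonged to Gsta2, Gstm2 and Gstz1, and the Gsta2 match lay 12 bp from the highest bin, at position 11035. That sequence is shown for this match, in capitals, with the limit that 39.1% of its region's words were single copy.
Gsta2, chr9:78192510-78192610, plus strand: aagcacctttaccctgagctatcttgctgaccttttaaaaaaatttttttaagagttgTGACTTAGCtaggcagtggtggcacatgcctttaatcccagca

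A further 16 glutathione S-transferase genes of the annotation were counted. Of these, 12 had a filtered RARα peak (against 57.9% of all genes), 12 an RXRα region (47.9%) and 7 a filtered co-localized peak (27.2%). The 7 were Gstm6, Gstm7, Gstp2, Gstt2, Gstt3, Gstk1 and Mgst1. These counts are not all separate observations, since neighbours share peaks or regions. Gstm6, Gstp2 and Gstt3 share them with Gstm3, Gstp1 and Gstt1, and the highest RXRα bin is the same for Gstm6 and Gstm7 and for Gsto1 and Gsto2. Mgst1, the microsomal enzyme, had 25 filtered peaks, of which 5 were co-localized, and 11.0 times input at its start. Gsta1 had 2 RXRα regions and no RARα peak, like the Gsta2 body, while Mgst2 had no RARα peak and no RXRα region. Single-copy words were not counted for these genes.

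Another set was 15 genes of glutathione synthesis, its use and the Nrf2 pathway. Of these, 12 had a filtered RARα peak (against 57.9% of all genes), 14 an RXRα region (47.9%) and 11 a filtered co-localized peak (27.2%). These 11 were Gclc, Gclm, Gss and Gsr, which make or regenerate glutathione, Nfe2l2 and Keap1, which encode Nrf2 and its inhibitor, and Gpx1, Gpx4, Txnrd1, Abcc2 and Ephx1. At Nfe2l2 the highest RXRα bin, at position 26, was 151 times input, with 91 RXRα reads and no input read, and all 3 filtered peaks were co-localized. Slc7a11, the cystine transporter, had neither kind of region. The share of the 15 with a filtered co-localized peak was 73.3%, and that of the 10 glutathione S-transferase genes was 60.0% (6 genes). Both shares rest on few genes. The windows take in the gene body, and gene lengths were not compared between these sets.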

How the data were processed

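The authors aligned the reads with Bowtie and called the RARα peaks with MACS, and the labels give CASAVA 1.4 and the mm9 build. The signal that the authors deposited for RXRα and for input is whole-number coverage by extended reads in 32 bp bins, 5 bins for each read. Both tracks sum to nearly the same total, which points to a common depth set before deposit. For RARα, the authors deposited peak positions, a peak score (5 to 382, median 12) and a false discovery rate in percent (up to 4.75), which was not used as a filter. How the score was computed is not given in the sources used here. The study's methods name mm10 for the alignment but NCBI37/mm9 for the annotation of the peaks, and NCBI37 was used throughout. No RARα peak lay beyond an NCBI37 chromosome end, which alone could not exclude mm10.

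The RXRα track was scaled to the mean of the input track, and bins at least 20 times the larger of local and mean input were joined within 200 bp, so that a bin at mean input needed 13 RXRα reads. A further 45 bins beyond chromosome ends were dropped. Peaks counted by their summit and regions by their middle for each gene whose window held them. Positions are in bp from the gene start along the gene, with negative values upstream. Ratios are of summed coverage, and their intervals come from whole reads. Counting intervals are exact binomial (Clopper-Pearson) or Poisson intervals at 95%, and cover counting error only. The score limit and the values of 10 kb, 20-fold and 25% come from the study's methods. Adding the gene body, applying 20-fold to single bins with mean input as a floor and referring the overlap to the narrower interval were choices made here. The named genes were the 10, the genes nearest to their peaks, 16 further glutathione S-transferase genes and, where co-localized or without any region, 15 pathway genes. The genes and lists were chosen with earlier results of these data known, and no test between conditions was possible. Words of 32 bases stood for reads, whose length was not used. Region calling, the overlap of peaks with regions and the search for direct repeats were tested on simulated data, and the other steps were not. The scripts ran under Python 3.11.15 (pysam 0.24.0, numba 0.67.0, numpy 2.4.6, scipy 1.17.1, matplotlib 3.10.9 and pandas 2.3.3).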

Additional observations from a re-analysis of the deposited data

How the results depend on the processing

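Of 40 recomputed values for the main results, 30 were either counts within 1.5 times the main count or medians that did not change. The other 10 are among the values below. Whether any result changed direction was not tested. With 1 kb around the gene start and no body, 5 genes had an RXRα region (21.6% of all genes), and 3 had a filtered co-localized peak (15.8% of all genes). With a score over 50, co-localized peaks remained at 2 genes (11.9% of all genes), Gstm4 and Gstz1. There were 8, with Gsta2 and Gstm2 without one each time, where no score threshold was set (37.3% of all genes), at 5 times input (52.2%), at 10 times input (42.7%) and over the genome mean input alone (40.05%), so the share of all genes rose as well. The median RXRα over input at the start was 6.38 within 500 bp and 3.95 within 2 kb. The median highest score was 47.5 without gene bodies, where only Gstm3 changed. The median highest RXRα ratio was 134 over the genome mean input alone. With 1 mismatch, direct repeats were in 3 RARα and 6 RXRα windows. Within 50 bp of the summit, the antioxidant response element core was in 1 RARα window. The causes were not tested. No paired analysis was possible because each antibody and the input had 1 library. Leaving out a library was not possible for the same reason.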
